A study of Mus musculus with 11 samples.

Results

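Gene expression in mouse T cells carrying FoxP3 with the R397W substitution was compared with that in T cells carrying the empty retroviral vector, over every probe set of an Affymetrix mouse array. The comparison held 2 R397W arrays and 3 empty-vector arrays, called mock here after the sample titles, and was chosen by those titles alone. These are 5 of the 11 arrays of the study; the other groups carried WT FoxP3 (3 arrays) and A384T FoxP3 (3 arrays). All groups started from naive CD4+ CD25- CD45RBhigh T cells of BALB/cA mice, taken from lymph nodes and spleen. Stimulation used anti-CD3e at 0.5 µg/ml together with 10 ng/ml of IL-2 and syngeneic spleen cells that had lost their T cells and received 20 Gy of radiation. Infection followed after 24 h, and on day 7 the CD4+ GFPhigh cells were sorted. The mock cells carried MIGR1 alone, and the R397W cells MIGR1 with R397W FoxP3. The age and sex of the mice are not given in the labels, nor is any separate animal or culture named behind the arrays of a group. The p-values therefore cover the variation among these arrays alone, and that variation may be technical.

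FoxP3, a transcription factor of the forkhead family, sets up regulatory T (Treg) cells, the lineage that restrains immune responses, and its loss causes severe autoimmunity in mice and in people (IPEX). R397W and A384T both change the DNA-binding forkhead domain, and both have been described in patients with IPEX. MIGR1 makes GFP from the same transcript as its insert, so sorting for high GFP selects cells that express the vector. WT FoxP3 placed in conventional CD4 T cells is known to switch on part of the Treg programme, including surface receptors such as CD25 and CTLA-4, and to repress cytokine genes. The comparison of R397W with mock addresses which of these changes, or others, the R397W protein brings about.

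The deposited values were log2 signals centred so that the median of the 3 mock arrays was 0 at each probe set. A value therefore says how far an array lay from the mock median of that probe set, and gives no level of expression. For this reason the CD4 T cell label could not be checked against the levels of its markers. The difference between R397W and mock in the CD4 T cell marker list had a median of -0.04 over 12 genes measured. The interquartile range over probe sets was 0.0706 to 0.123 log2 units on the mock arrays, which the centring narrows, and 0.243 to 0.262 on the R397W arrays. Arrays of the same number deviated together from their group means, with a median correlation of 0.496 over 15 same-numbered pairs of different groups. Numbers 2 and 3 were parted less clearly, as A384T 2 correlated at 0.107 with mock 2 and at 0.283 with mock 3. R397W has numbers 1 and 2 only, and same-numbered differences from mock, or the value of a fit blocked on array number, are given for the main genes.

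The array carries 1 probe set for Foxp3. It read 0, -0.34 and 0.26 on mock 1, 2 and 3, and -0.19 and -0.39 on R397W 1 and 2. The groups overlapped, with a difference of -0.27 ± 0.17 (SE; n = 2 and 3 arrays; 95% interval -0.63 to 0.10) that did not pass the test (limma, adjusted p = 1). The same-numbered differences were -0.19 and -0.06. WT FoxP3 arrays read -0.07, 0 and 0.11 on the same probe set, within the range of the mock arrays. Because the Foxp3 probe set was not higher in cells given WT FoxP3 either, it does not check the R397W label. The sources used here do not say whether its probes lie in the sequence carried by the vector.

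No probe set passed the test between R397W and mock. Of 45037 probe sets, 0 had an adjusted p under 0.05 with limma (0% called), and the smallest adjusted p was 1. Adding the array number as a block also gave 0 (0% called). At an unadjusted p under 0.05 there were 472 probe sets higher in R397W (1.05%) and 357 lower (0.793%), or 829 together (1.84%). With the block these became 796 higher (1.77%) and 888 lower (1.97%), or 1684 together (3.74%). Without mock 1 the count at an unadjusted p under 0.05 was 1493, and without R397W 1 it was 1245. The smallest p was 0.000252, and with the block 0.000118. The R397W and mock arrays did not overlap at 2891 probe sets where R397W was higher (6.42%) and at 2469 where it was lower (5.48%).

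The sizes of the differences were small beside those of WT FoxP3. Between R397W and mock, 98 in 100 probe sets lay between -0.477 and 0.376 on the log2 scale, and the SD over probe sets was 0.164. Between WT and mock the corresponding bounds were -0.914 and 1.13, with an SD of 0.342. WT over mock called 1198 probe sets (2.66%), 671 higher and 527 lower, and 1792 and 1646 with the block. R397W set directly against WT called 788 (1.75%), 342 higher and 446 lower in R397W, and 1221 and 1382 with the block. Differences between R397W and mock past 1 log2 unit were found at 6 probe sets upward and 32 downward, against 562 and 356 between WT and mock. The 95% interval of a single R397W difference had a median half-width of 0.345 log2 units, and 0.3 with the block, before any adjustment for the number of probe sets.

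The differences from mock were nearly uncorrelated between the array numbers. Over the 45037 probe sets, R397W 1 minus mock 1 and R397W 2 minus mock 2 had a Pearson correlation of 0.0557 and a Spearman correlation of 0.0391. For WT the same pair of numbers gave 0.672 and 0.401, and for A384T 0.534 and 0.268. These are descriptions across probe sets, which are not independent and share the array; no array stands in both differences of a pair. Both R397W differences had the same sign at 21954 of 42809 probe sets where neither was 0 (51.3%), against 62.2% in WT and 57.6% in A384T. Past 1 log2 unit in both numbers, R397W had 0 probe sets higher and 1 lower, WT had 484 and 273, and A384T had 440 and 244. Past 0.5 log2 units in both numbers, R397W had 42 higher, 44 lower and 30 in opposite directions, whereas WT had 1390, 1129 and 43. Taken alone, R397W 1 passed 1 log2 unit at 7 probe sets upward and 6 downward, and R397W 2 at 39 and 115.

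**Figure D1:**
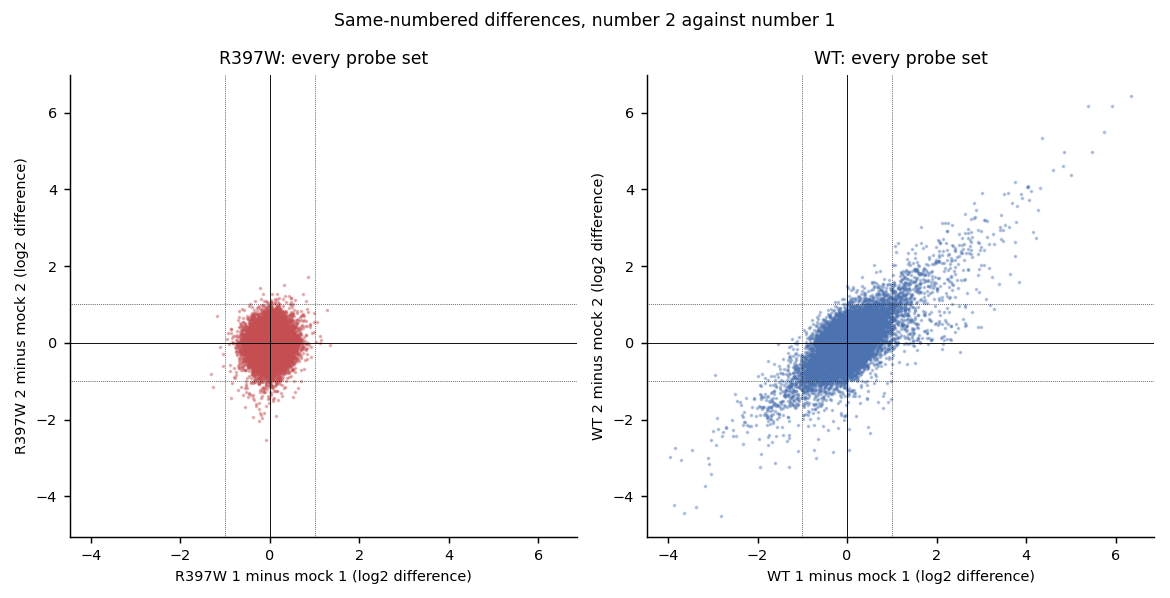
Each point is 1 of 45037 probe sets, with the number 1 difference from mock on the horizontal axis and the number 2 difference on the vertical axis, in log2 units, for R397W (left) and WT (right); dotted lines mark 1 log2 unit either way. The R397W points show little diagonal trend (Pearson r = 0.0557) and spread wider along the number 2 axis. Of them, 1 lies past 1 log2 unit in the same direction on both axes. The WT points run along the diagonal (r = 0.672).

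Genes tied to the Treg programme are given next. At Gpr83, Izumo1r, Il2ra, Ctla4, Tnfrsf9, Nt5e and Irf4, the R397W arrays lay among or near the mock arrays and below every WT array. Gpr83, a G protein-coupled receptor abundant in Treg cells, read 0.21, 0 and -0.91 on mock 1, 2 and 3, and -0.17 and -1.05 on R397W 1 and 2. On the WT arrays it read 6.13, 6.17 and 4.76. The R397W and mock arrays overlapped, with a difference of -0.37 ± 0.54 (SE) and a 95% interval from -1.58 to 0.83, while all WT arrays lay far above both. The same-numbered differences were -0.38 and -1.05, and the fit blocked on array number gave -0.74 (interval -1.24 to -0.25, adjusted p = 1). Gpr83 was called in R397W over WT, at -6.30 ± 0.54 with an adjusted p of 0.000421 (limma). On a second Gpr83 probe set mock read 0.00, 0.02 and -0.02 and R397W -0.20 and 0.13, a difference of -0.04 ± 0.24. That second probe set was 6.24 higher in WT than in mock. Izumo1r, which encodes folate receptor 4, a surface marker of Treg cells, read -0.18, 0.28 and 0 on the mock arrays, -0.17 and 0.10 on the R397W arrays, and 3.52, 3.92 and 3.36 on the WT arrays. Its R397W difference was -0.07 ± 0.18 against mock (interval -0.48 to 0.33; 0.00 and -0.18 by number) and -3.64 ± 0.18 against WT (adjusted p = 4.05e-05). Gpr83 and Izumo1r are neighbours on chromosome 9 in the RefSeq gene table, with 0 genes between them.

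Il2ra encodes CD25, which gives the IL-2 receptor its high affinity. It read 0.08, -0.46 and 0 on the mock arrays, 0.44 and -0.05 on the R397W arrays, and 2.30, 1.96 and 1.98 on the WT arrays. R397W overlapped mock (difference 0.32 ± 0.23, interval -0.20 to 0.84; 0.36 and 0.41 by number) and lay below every WT array (R397W over WT -1.89 ± 0.23, adjusted p = 0.00298). Both probe sets of Il2ra had the same sign in R397W over mock. Ctla4, an inhibitory receptor that competes with CD28 for its ligands, read 0, 0.53 and -0.15 on mock, 0.29 and 0.56 on R397W, and 2.13, 1.73 and 1.77 on WT. Its R397W difference was 0.30 ± 0.22 against mock (0.29 and 0.04 by number) and -1.45 ± 0.22 against WT (adjusted p = 0.00951). This Ctla4 call against WT was lost with quantile normalization (-0.74, adjusted p = 0.497, limma). That setting gave all arrays the same distribution, although centring had left interquartile ranges of 0.0706 to 0.123 on mock and 0.281 to 0.307 on WT. Whether this shrank the difference was not tested. Without R397W 1 the difference was -1.31 and without R397W 2 -1.58, each from 1 R397W array and not called.

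Tnfrsf9, which encodes the costimulatory receptor 4-1BB, read -0.53, 0.33 and 0 on mock, -0.46 and 0.29 on R397W, and 3.49, 4.39 and 4.30 on WT. The difference was -0.02 ± 0.33 against mock and -4.14 ± 0.33 against WT (adjusted p = 0.000267). On this probe set the same-numbered differences were 0.07 and -0.04. On a second Tnfrsf9 probe set that was also called in WT over mock (3.57), mock read -0.17, 0.86 and 0 and R397W -0.06 and 0.12, a difference of -0.20 ± 0.29. Nt5e, which encodes CD73, the enzyme that makes adenosine outside the cell, read 0.68, -0.52 and 0 on mock, 0.52 and 0.46 on R397W, and 3.70, 3.38 and 3.51 on WT. It differed by 0.43 ± 0.28 from mock (-0.16 and 0.97 by number) and by -3.04 ± 0.28 from WT (adjusted p = 0.000563; 0.0835 with quantile normalization, where the difference was -1.82).

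Irf4 and Batf encode transcription factors that bind DNA together in activated T cells. Irf4 read 0.03, 0 and -0.03 on mock, 0.11 and -0.49 on R397W, and 2.98, 1.93 and 1.81 on WT. R397W straddled the mock values (-0.19 ± 0.46, interval -1.21 to 0.83, or -0.42 with the block) and lay below every WT array (-2.43 ± 0.46, adjusted p = 0.0269). Irf4 lost its call against WT without R397W 1 (adjusted p = 0.107) and without R397W 2 (adjusted p = 0.21), and its second probe set was not called (0.00 against mock, -0.19 against WT). Batf read -0.87, 0.04 and 0 on mock, -1.30 and -0.28 on R397W, and -0.14, 0.55 and 0.47 on WT. Its difference of -0.51 ± 0.36 from mock did not pass (-0.43 and -0.32 by number). Against WT, Batf differed by -1.08 ± 0.36 (adjusted p = 0.254), which passed with the block (adjusted p = 0.00267).

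Il2, the T cell growth factor, read 0, 0.35 and -0.01 on mock, 0.43 and 0.41 on R397W, and 0, 0 and -0.13 on WT. Both R397W arrays lay above all mock arrays, at 0.31 ± 0.12 (interval 0.03 to 0.58; adjusted p = 1), and the gap between R397W 2 and mock 2 was 0.06. Ifng, the Th1 cytokine, read 0, 0.18 and -0.27 on mock and -0.14 and 0.01 on R397W, which overlap (-0.03 ± 0.14). By number the Ifng differences were -0.14 and -0.17. Il7r, the IL-7 receptor alpha chain that Treg cells carry at low levels, read -0.26, 0.15 and 0 on mock, -0.13 and 0.55 on R397W, and -0.97, -0.23 and -0.30 on WT. It differed by 0.25 ± 0.38 from mock (0.13 and 0.40 by number), and by 0.72 ± 0.38 from WT (adjusted p = 0.623, or 0.0244 with the block).

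Of the 12 genes given so far, 0 were called in R397W over mock and 7 in R397W over WT, or 9 with the block. The 12 were named with WT results of these data known, so the count against WT says how R397W stood at genes that WT FoxP3 was already seen to move. The forkhead core letters TGTTTAC, or GTAAACA on the other strand, were found in 0 of 14 promoter windows of these genes and in 3.65% of all 32851 windows (300 bases around a RefSeq start, mostly upstream). The shorter letters TGTTT, or AAACA, which lie whole within the longer ones, were found in 9 of the 14 and in 50.5% of all windows.

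**Figure D2:**
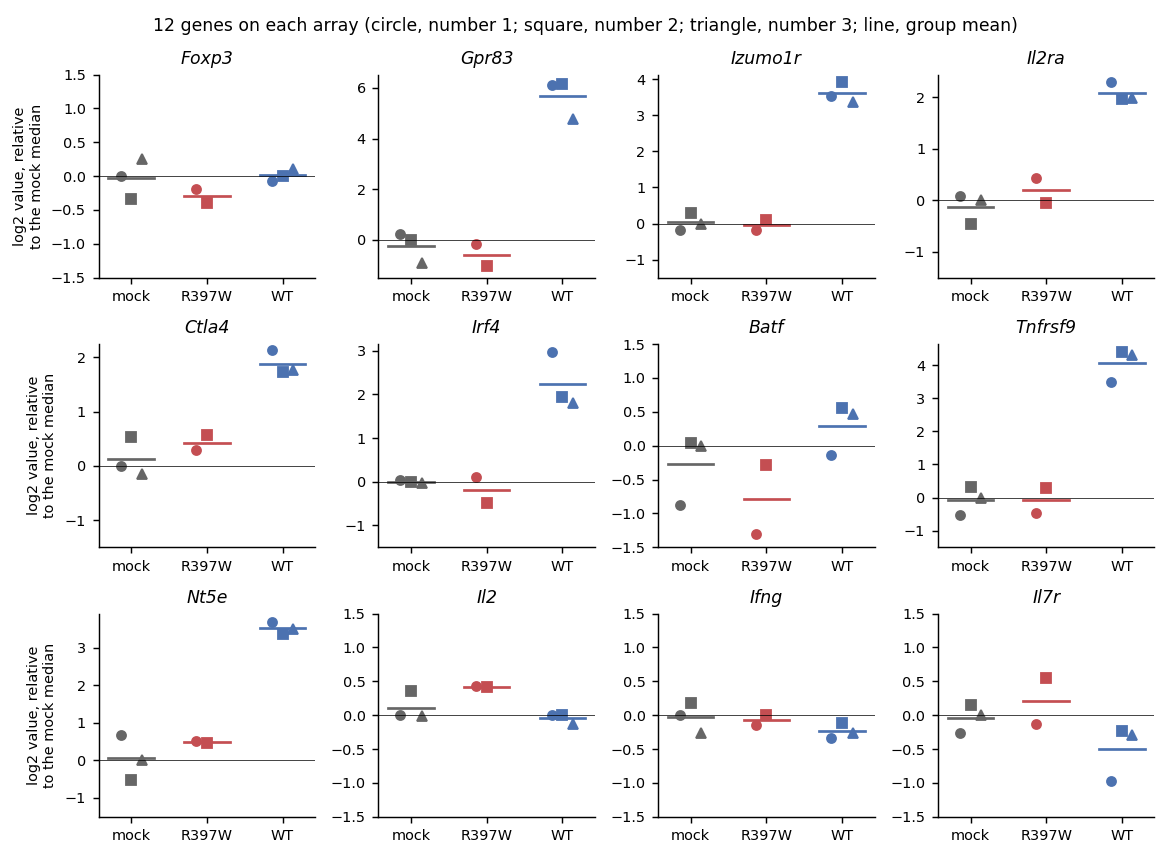
Values of 12 genes on each mock, R397W and WT array, in log2 units relative to the mock median; symbols mark the array number and short lines the group means, and the vertical scale differs between panels. The R397W and mock arrays overlap in every panel except that of Il2, and the WT points lie above both groups for Gpr83, Izumo1r, Il2ra, Ctla4, Irf4, Tnfrsf9 and Nt5e.

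The list of genes higher in Treg cells gave the same picture over 30 genes measured. In R397W over mock 0 were called in either direction, 18 lay above 0 and 12 below, and the median difference was 0.137, against 0.0031 over all 18193 genes. The medians of the list on the R397W arrays were -0.0279 and 0.153, beside 0, 0.125 and 0 on the mock arrays and 1.06 to 1.33 on the WT arrays. R397W 2 was thus near mock 2, and the same-numbered medians were -0.0154 and 0.0525. In WT over mock 13 of the 30 were called, all higher, and the median was 1.13; over all 18193 genes 279 were called higher and 244 lower. In R397W over WT 10 were called lower and 0 higher, or 17 and 0 with the block. Over all genes these counts were 191 lower and 164 higher, or 677 and 584 with the block. With the block the median in R397W over mock was 0.0289, and without R397W 2 it was 0.0194. The 24 targets of the IL-2 receptor and STAT5 had a median of 0.0198 in R397W over mock (13 above 0, 11 below, 0 called), 1.05 in WT over mock (11 called higher) and 8 called lower in R397W over WT, or 14 with the block. The 17 genes lower in Treg cells had a median of 0.0154 in R397W and -0.275 in WT. Tnfrsf18, the receptor GITR, differed by 0.18 ± 0.15 from mock and by -1.22 ± 0.15 from WT (adjusted p = 0.00314).

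Gzmb, the cytotoxic protease granzyme B, had the highest difference of all probe sets. It read 0, 0.27 and -1.66 on mock 1, 2 and 3, 0.83 and 1.16 on R397W, and 3.48, 3.21 and 1.81 on WT. Both R397W arrays lay above all mock arrays and below all WT arrays, and the difference from mock was 1.46 ± 0.74 (adjusted p = 1). Number 3 was the lowest array of mock, WT and A384T at Gzmb, and R397W has no number 3. With the block the difference was 0.86 (adjusted p = 1), and the same-numbered differences were 0.83 and 0.88. The other named probe sets past 1 upward were those of App, the amyloid precursor protein (1.23), Cd24a, a surface glycoprotein (1.07), Btnl9, a butyrophilin-like protein (1.06) and Crem, a cAMP-responsive transcription factor (1.04), none with an adjusted p below 1.

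The genes with the smallest p among those whose groups did not overlap are described next. Each was read through 1 probe set, chosen by its SD over the WT and A384T arrays. The App probe set above (unadjusted p = 0.00136, limma) was not the chosen one and is left out. Of these 20 genes, 0 passed the test. Prkci, an atypical protein kinase C, read -0.06, 0.25 and 0 on mock and -0.84 and -0.65 on R397W. The difference was -0.81 ± 0.16, 1.75-fold lower (adjusted p = 1), but the other probe set of Prkci differed by 0.08 ± 0.22. Csf1, the growth factor of macrophages, read -0.26, 0.13 and 0 on mock and -1.10 and -0.93 on R397W, a difference of -0.97 ± 0.20 (adjusted p = 1). All 4 probe sets of Csf1 were lower in R397W, 2 of them at an unadjusted p under 0.05, and its same-numbered differences were -0.85 and -1.05. The WT arrays read -0.77, -0.14 and -0.15 at Csf1, above both R397W arrays, and R397W over WT did not pass (-0.66, adjusted p = 0.204).

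Cdkn1c, the cell cycle inhibitor p57, read -0.08, 0.08 and 0 on mock, -0.38 and -0.32 on R397W, and 0.61, 0.74 and 0.75 on WT. R397W thus lay on the other side of mock from WT, at -0.35 ± 0.10 against mock (adjusted p = 1) and -1.05 ± 0.10 against WT (adjusted p = 0.000645). Lcn3, a lipocalin, differed by -0.42, the unnamed transcript 5830432E09Rik by -0.40, Fbxl13, an F-box protein, by -0.36, and Atg9b, an autophagy protein, by -0.35. Among the higher genes, Gprc5b, an orphan G protein-coupled receptor, read 0.22, -0.40 and 0 on mock and 0.68 and 0.77 on R397W. Its difference was 0.79 ± 0.21 (adjusted p = 1), and its other probe set had the opposite sign. Fgfr1, a fibroblast growth factor receptor, read -0.04, 0.14 and 0 on mock and 0.43 and 0.73 on R397W, a difference of 0.55 ± 0.14, with all 3 probe sets higher. The efflux pumps Abcb1a and Abcg2 each differed by 0.50 ± 0.13, and both probe sets of Abcb1a had an unadjusted p under 0.05. Abcg2 was called higher in WT over mock (0.76, limma adjusted p = 0.008) but not in R397W over mock. R397W and WT did not differ past the test at Abcg2 (-0.26, interval -0.56 to 0.04). The other higher genes were Hrob (0.49), LOC100043315 (0.47), 4931428F04Rik (0.41), Clvs2 (0.39), Snhg18 (0.39) and Igsf6 (0.35). In R397W over WT 5 of the 20 were called, or 8 with the block, in a test that used the same R397W arrays as the choice of genes. Over all 18193 genes that contrast called 164 higher and 191 lower, or 584 and 677 with the block.

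**Figure D3:**
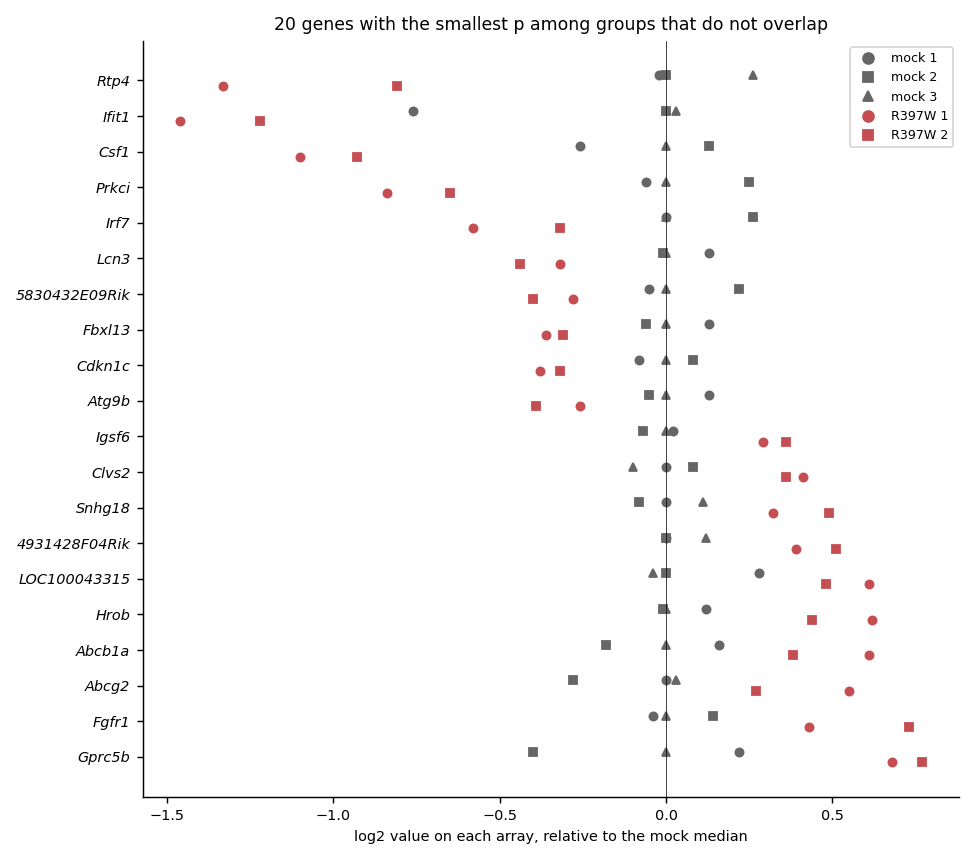
Values of 20 genes on each of the 5 arrays, in log2 units relative to the mock median, ordered by the difference. Each gene is shown through 1 probe set, chosen by its SD over the WT and A384T arrays. Grey marks mock, red R397W, and symbols give the array number. The genes were chosen because the groups do not overlap, which holds at 6.42% of probe sets upward and 5.48% downward; Rtp4 and Ifit1 show differences of -1.15 and -1.10, and the other 18 stay within 1 log2 unit.

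Interferon-stimulated genes, which encode antiviral effectors and sensors switched on by interferon, had the lowest median of the 40 lists in the reported fit. Of 28 listed, 25 were measured, and 23 of these lay below 0 in R397W over mock. The median was -0.228, against 0.0031 over all genes. With the block it was -0.181, and the median of the Th1 list was lower (-0.197). None passed the test: 0 were called, 4 were lower at an unadjusted p under 0.05 and 0 higher (7 and 0 with the block). R397W lay below all mock arrays at 10 of the 25 and above them at 0, and below mock in both same-numbered differences at 17. Over all 18193 genes, the groups did not overlap at 997 lower and 1134 higher, and 8943 lay below 0. Both same-numbered differences were below 0 at 4618 of them. At an unadjusted p under 0.05, 118 of all genes were lower and 193 higher, or 380 and 323 with the block. The list median was -0.45 on R397W 1 and -0.113 on R397W 2, beside -0.0377, 0 and 0 on the mock arrays and -0.59, -0.335 and -0.441 on the WT arrays. R397W 1 was therefore the lower of the pair, and the median difference was -0.093 without R397W 1 and -0.447 without R397W 2.

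Promoter windows are shown for the members whose R397W and mock arrays did not overlap and that hold the letters of the interferon-stimulated response element, searched as GAAA, any 2 bases and GAAA, or on the other strand TTTC, any 2 bases and TTTC. Overlapping matches were allowed. They are given 5′ to 3′ on the strand of the gene, with matches in capitals, from RefSeq (GRCm38.p6).
Ifit1, chr19:34640639-34640938, plus strand: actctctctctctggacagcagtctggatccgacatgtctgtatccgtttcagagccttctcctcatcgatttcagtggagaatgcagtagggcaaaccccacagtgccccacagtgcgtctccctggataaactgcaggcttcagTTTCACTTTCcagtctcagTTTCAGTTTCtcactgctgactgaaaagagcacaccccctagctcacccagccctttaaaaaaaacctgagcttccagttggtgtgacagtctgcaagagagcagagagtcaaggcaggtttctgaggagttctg
Ifit3, chr19:34583279-34583578, plus strand: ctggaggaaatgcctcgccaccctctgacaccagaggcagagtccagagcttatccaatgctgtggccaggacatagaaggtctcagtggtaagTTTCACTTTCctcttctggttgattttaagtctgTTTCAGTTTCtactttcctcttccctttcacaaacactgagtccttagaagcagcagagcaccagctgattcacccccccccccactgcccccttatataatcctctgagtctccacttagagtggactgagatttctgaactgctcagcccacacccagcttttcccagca
Ifitm3, chr7:141010695-141010994, minus strand: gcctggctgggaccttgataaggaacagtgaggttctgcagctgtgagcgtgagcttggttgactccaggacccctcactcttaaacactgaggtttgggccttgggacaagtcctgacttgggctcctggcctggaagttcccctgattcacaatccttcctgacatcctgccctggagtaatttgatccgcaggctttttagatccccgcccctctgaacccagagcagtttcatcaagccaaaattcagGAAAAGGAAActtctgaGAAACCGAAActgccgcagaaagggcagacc
These letters were found in 12 of 24 windows of the list, from 11 of 19 genes with a window, and in 1131 of all 32851 windows (3.44%). A match is a description of the letters and not a site that was measured here.

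Rtp4, an interferon-induced chaperone of membrane receptors, read -0.02, 0 and 0.26 on mock, -1.33 and -0.81 on R397W, and -1.79, -2.65 and -2.15 on WT. R397W lay between the other groups without overlap, at -1.15 ± 0.23 against mock, 2.22-fold lower (-1.32 and -0.81 by number; adjusted p = 1), and 1.13 ± 0.23 above WT (adjusted p = 0.0402). The second probe set of Rtp4 differed from mock by -0.22 ± 0.22. Ifit1, which binds foreign RNA and whose window above holds 2 matches, read -0.76, 0 and 0.03 on mock, -1.46 and -1.22 on R397W, and -2.43, -2.57 and -1.93 on WT. Its difference from mock was -1.10 ± 0.31 (-0.71 and -1.22 by number; adjusted p = 1), and from WT 0.97 ± 0.31 (adjusted p = 0.24, or 0.00751 with the block). Irf7, the transcription factor that amplifies type I interferon, read 0, 0.26 and 0 on mock, -0.58 and -0.32 on R397W, and -1.74, -1.40 and -1.82 on WT. The difference was -0.53 ± 0.16 from mock (-0.57 and -0.58 by number; adjusted p = 1) and 1.21 ± 0.16 from WT (adjusted p = 0.00354). At these 3 genes the R397W arrays lay between mock and WT.

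At Ifit2, Oas3 and Ifitm3 the R397W arrays did not lie between mock and WT without overlap. Ifit2, an RNA-binding relative of Ifit1, read 0.18, -0.28 and 0 on mock, 0.31 and 0.17 on R397W, and -1.24, -0.95 and -1.05 on WT. R397W overlapped mock (0.27 ± 0.15) and lay above WT (1.32 ± 0.15, adjusted p = 0.00228). Oas3, an enzyme that activates RNase L, read -0.43, 0.28 and 0 on mock and -0.67 and 0.11 on R397W, which overlap. Each R397W array lay below the mock array of its number at Oas3, and WT lay at -1.86, -2.11 and -1.77. Oas3 differed by 1.63 ± 0.27 between R397W and WT (adjusted p = 0.013). Ifitm3, which blocks virus entry and has 2 matches in its window, read 0.09, -0.34 and 0 on mock, -0.47 and -0.41 on R397W, and 2.51, 1.63 and 2.38 on WT. R397W did not pass against mock (-0.36 ± 0.27) and was lower than WT (-2.61 ± 0.27, adjusted p = 0.00129). Xaf1, a pro-apoptotic protein, differed from mock by -0.37 ± 0.14 (adjusted p = 1), and Ifit3 by -0.23 ± 0.12. In WT over mock 7 members of the list were called lower and 1 higher, and R397W over WT called 4 higher and 1 lower, or 6 and 2 with the block. Over all 18193 genes, WT over mock called 244 lower and 279 higher, and R397W over WT 164 higher and 191 lower, or 584 and 677 with the block. The guanylate-binding proteins and interferon GTPases, a related group of 10 genes, had a median of -0.000471 in R397W over mock, with same-numbered medians of -0.218 and 0.386.

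**Figure D4:**
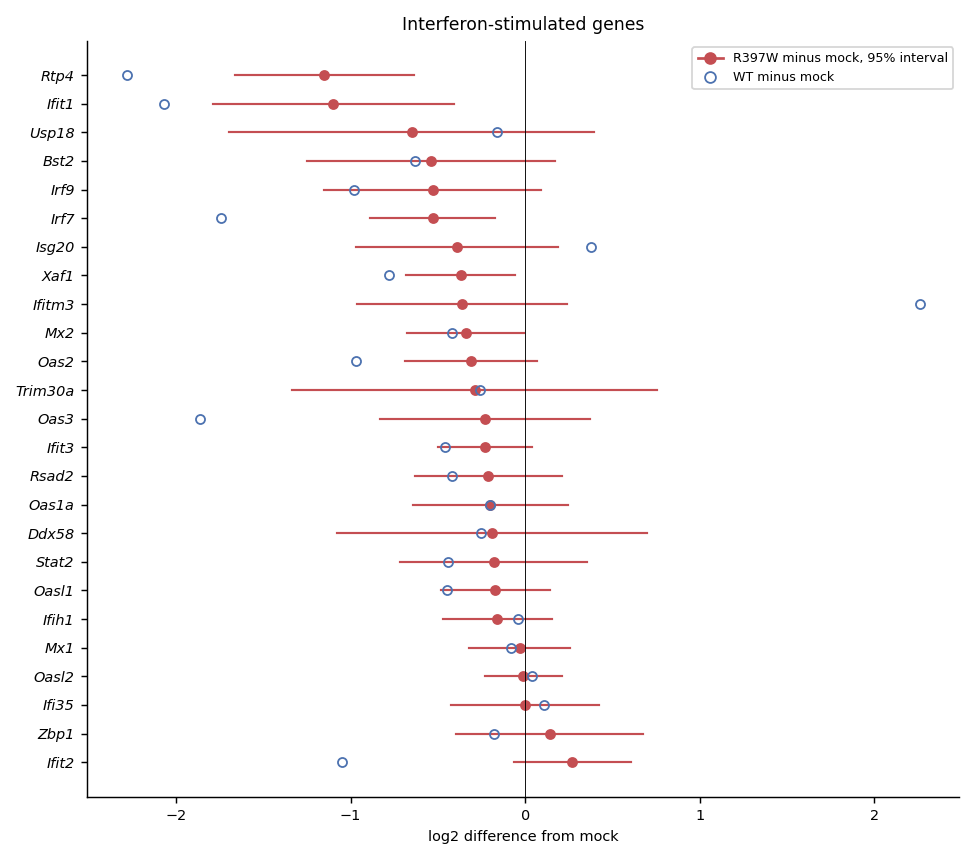
Differences from mock of 25 interferon-stimulated genes in log2 units: filled points with bars are R397W with its 95% interval, open circles are WT. The points of 23 genes lie below 0 in R397W, from -1.15 at Rtp4, and most intervals cross 0; Ifitm3 lies at 2.26 in WT.

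Nebl, the actin-binding protein nebulette, was the 1 probe set past 1 log2 unit in both same-numbered differences. The Nebl probe set chosen by SD over the WT and A384T arrays was another one, which did not pass 1 log2 unit in both. The probe set past 1 read 0, 0.50 and -0.56 on mock 1, 2 and 3, and -1.26 and -0.64 on R397W 1 and 2. On WT it read -3.17, -3.25 and -3.04. The same-numbered differences were -1.26 and -1.14, while R397W 2 lay close to mock 3. R397W differed from mock by -0.93 ± 0.27 (adjusted p = 1) and from WT by 2.20 ± 0.27 (adjusted p = 0.00274).

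Most of the larger negative differences passed 1 log2 unit in number 2 and not in number 1. Of the 32 probe sets lower than mock by over 1 log2 unit, 28 were lower by over 1 in number 2 and 1 in number 1, and mock 1 itself lay under -0.5 at 25 of them. The lowest was Cdkn1b, the cell cycle inhibitor p27, at -2.11 ± 1.73 (adjusted p = 1). It read -0.78, 0 and 2.97 on mock and -0.92 and -1.84 on R397W, and number 3 was the high array in WT (2.39) and A384T (3.38) too. With the block the Cdkn1b difference was -0.74. Malat1, a long non-coding RNA of the nucleus, was noticed after its values were seen and has 7 probe sets. On the lowest of them it read -1.65, 0.13 and 0 on mock and -1.82 and -1.84 on R397W. WT 1 and A384T 1 were low too (-1.68 and -2.06), as was A384T 2 (-1.46), while WT 2 (-0.21) was not. The Malat1 difference from mock on that probe set was -0.17 in number 1 and -1.96 in number 2, and over the 7 probe sets the group difference ran from -1.32 to 0.04. Pfkp, the platelet form of phosphofructokinase, read -1.89, 0.59 and 0 on mock and -2.77 and -0.86 on R397W, and differed by -1.38 ± 0.84 (adjusted p = 1). Here both same-numbered differences were negative (-0.88 and -1.45; -1.10 ± 0.28 with the block, adjusted p = 1), and the other probe sets of Pfkp differed by -0.13 and -0.33. What the number stands for is not given in the labels.

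Over the 40 lists, 653 genes were measured and 0 were called in R397W over mock. At an unadjusted p under 0.05, 4 were higher and 9 lower. Over all 18193 genes these counts were 193 higher and 118 lower. The 38 transcription factors of T cells had a median of -0.157 with 28 below 0, from -0.55 at Lef1 to 0.26 at Ikzf4. By number the medians of this list were -0.0522 and -0.0554, with 13 genes lower and 6 higher in both numbers. The 19 AP-1, BATF and IRF factors had a median of -0.103, from -0.64 ± 0.34 at Jun, whose other probe set differed by 0.06, to 0.44 ± 0.25 at Fosl2. The 18 glycolysis genes had a median of -0.151 with 16 below 0, but their array medians were -0.64, 0.368 and 0 on mock and -0.782 and 0.201 on R397W, so that each R397W array lay near the mock array of its number. The 29 mitosis genes had a median of 0.121, and -0.163 with the block, with array medians of 0.241, 0 and -0.111 on mock and 0.402 and -0.197 on R397W. In WT that median was 1.13, with 2.42 on WT 1 and 0.418 on WT 3. The 32 DNA replication genes had a median of 0.0935, or -0.0418 with the block. Medians of the Th1 (-0.129), Th2 (-0.0253) and Th17 (-0.113) lists rested on 13, 14 and 8 genes, and Ccl5, a chemokine of effector T cells, differed by -0.36 ± 0.13 (adjusted p = 1). In the TNF superfamily ligands, Tnfsf8, which encodes CD30 ligand, differed by -0.65 ± 0.28 from mock (adjusted p = 1) and by -1.66 from WT (adjusted p = 0.0151). By number the Tnfsf8 differences from mock were -0.17 and -1.01, and the block gave -0.61 ± 0.19.

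Markers of other cells that the culture or the sort could hold showed no called member. The medians of the 7 lists ran from -0.111 for MHC class II and antigen presentation to 0.0643 for erythroid and platelet markers. The B cell list, the main cell type left in a spleen depleted of T cells, had a median of -0.0532 over 12 genes, 5 above 0 and 7 below, from -0.25 at Blnk, a B cell adaptor, to 0.20 at Ighm, the IgM heavy chain. The class II list had 4 genes above 0 and 5 below, and its extremes were the chains of one class II accessory protein, H2-Oa at -0.44 and H2-Ob at 0.35. Because the values hold no levels, which of these markers are expressed could not be read.

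**Figure D5:**
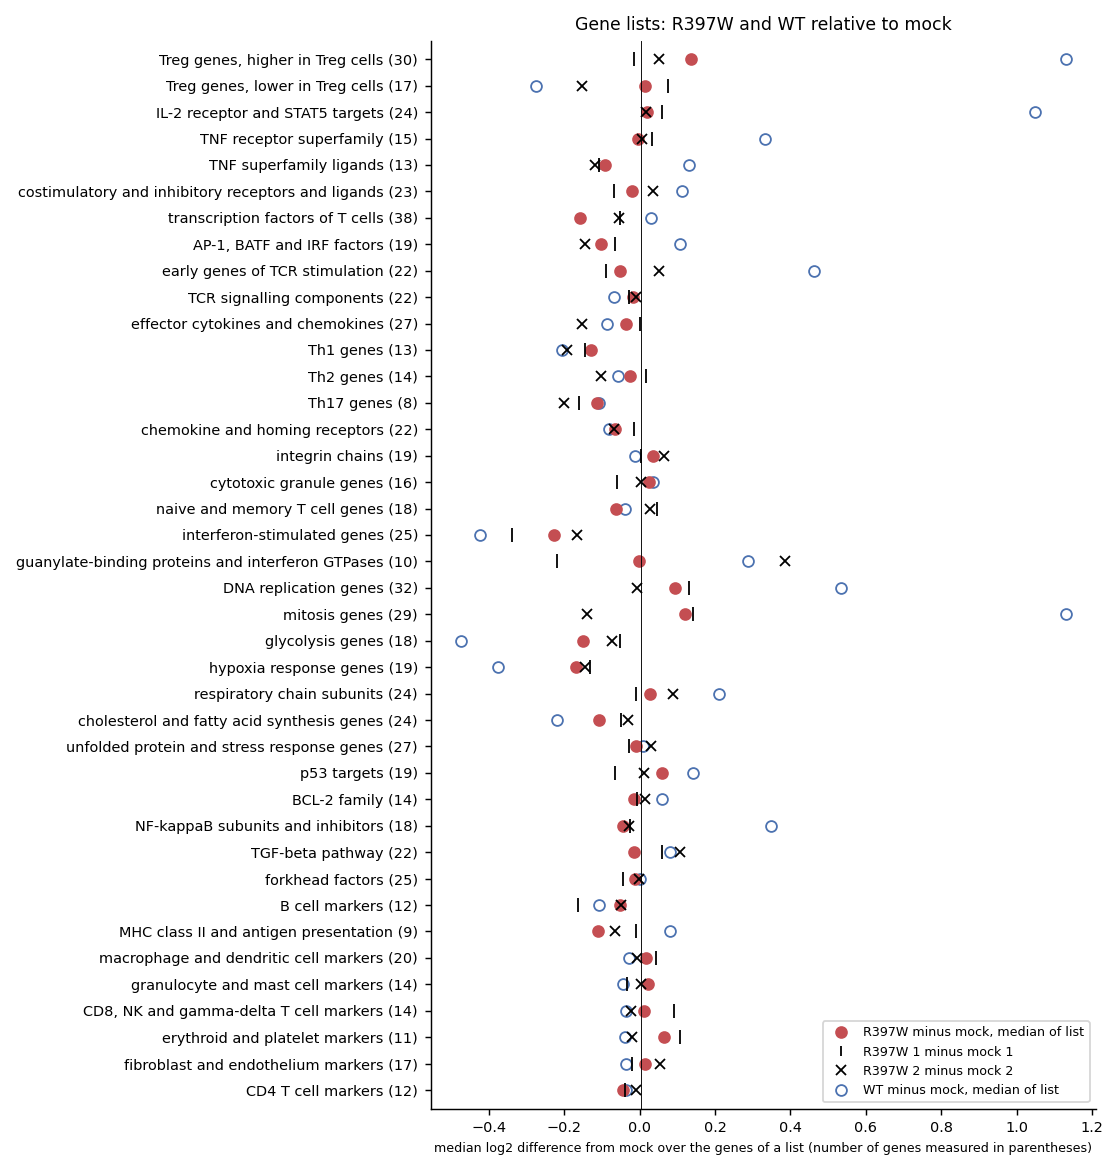
Median log2 difference from mock over the genes of each of 40 lists, with the number of genes measured in parentheses: filled points are R397W, bars and crosses its same-numbered differences for numbers 1 and 2, and open circles WT. R397W medians run from -0.228 to 0.137, and WT medians reach 1.13 for the genes higher in Treg cells and for the mitosis genes.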

How the data were processed

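Total RNA of 11 samples was labelled with biotin and hybridised to Affymetrix arrays, 1 array each, per the labels. The deposited log2 values came from RMA (submitters' processing notes, no version given), which corrects background, normalises by quantiles and summarises probes. In the deposited table every probe set had a mock median of 0; this centring and the log base are not given in the sources used here, and base 2 was assumed. It keeps differences and removes levels. After 64 control probe sets were left out, 45037 of 45101 remained: 34945 with 1 symbol (18193 genes), 932 with several and 9160 with none listed in the platform annotation. Entrez IDs of 34741 matched RefSeq (GRCm38.p6), used for names, neighbours and promoters; 0 symbols changed.

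Each probe set was fitted with limma (3.58.1, R 4.3.3) as 1 mean per group over all 11 arrays (7 residual degrees of freedom), tested with eBayes and called where the Benjamini-Hochberg adjusted p, over 45037 probe sets, was under 0.05. The 5 arrays alone would leave 3. Differences, SEs and intervals are from this fit without the block, unless the block is named. Genes with several probe sets were read through that with the largest SD over the WT and A384T arrays. The fit was also run on simulated data, with planted changes larger than nearly all differences between R397W and mock. How often it would call smaller changes was not tested. Figures used Python 3.11.15, pandas 2.3.3 and matplotlib 3.10.9. The number of arrays limits the precision.

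Numbers were taken to pair arrays: deviations from the group means correlated at 0.107 to 0.718 (median 0.496) for all 15 same-numbered pairs and at -0.695 to 0.344 (median -0.362) for the 30 others. Deviations within a group sum to 0, so negative values among the others follow in part, and R397W 1 and 2 mirror each other. R397W 2 correlated with mock 2, WT 2 and A384T 2 at 0.496, 0.409 and 0.447. With mock 3, WT 3 and A384T 3 it reached 0.332, 0.344 and 0.283. A384T 2 correlated at 0.107 with mock 2 and at 0.283 with mock 3. The correlations thus set number 1 apart more clearly than they part numbers 2 and 3.

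Named were 12 set genes; then the 15 largest called rises and falls without overlap, or, with fewer called, up to 10 with the smallest p each way; and from each of 40 lists up to 4 called members, or 2 with the smallest p. The text names part of these 98, plus values singled out as such. Members, lists and rules were chosen with earlier results of these data known. Of 712 listed genes, 653 were measured. Alternatives changed the block, arrays, prior, filter, scaling and probe set rule.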

Additional observations from a re-analysis of the deposited data

How the results depend on the processing

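The count of probe sets called in R397W over mock, and of list members called, was 0 in the reported fit and in all 22 alternatives, 15 planned and 7 chosen after seeing the data. The count at an unadjusted p under 0.05 was 829 as reported. With the replicate block it was 1684, with the block on the 5 mock and R397W arrays 2267, and with the block and a robust prior 1667. It was 257 and 306 with 1 probe set per gene (chosen on the WT and A384T arrays, or on all arrays), 378 with the mean of a gene's probe sets and 130 in the 50% of probe sets with the larger SD, where fewer features were tested. Leaving out 1 array gave 754 to 1493, and with the block 1241 to 2328 (1265, 1737 and 1888 between). The count of probe sets past 1 log2 unit in both numbers, 1 as reported, was 8 after quantile normalization. That setting gave the same distribution to mock and R397W arrays, whose interquartile ranges had differed after centring, and its part in the 8 was not tested. The count was 0 with 1 probe set per gene chosen on the WT and A384T arrays, which reads Nebl through another probe set. It was also 0 with the mean of a gene's probe sets. Of 98 named genes, 74 kept their sign in every setting and 0 were called in any. The median of the interferon-stimulated genes ran from -0.45 to -0.093 over the settings, that of the genes higher in Treg cells from -0.0453 to 0.201, and that of the mitosis genes from -0.592 to 0.421. In R397W over WT, 7 of the 12 set genes were called, and 9 with the block, which added Batf and Il7r. With 2 arrays against 3, the unadjusted 95% interval of a probe set had a median half-width of 0.345 log2 units.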
